A study of Mus musculus with 6 samples.

Results

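The 8 genes described here encode carriers that bring fuel, creatine and vitamins across the membranes of brain endothelial cells: the glucose carriers Slc2a1 and Slc2a3, the monocarboxylate carriers Slc16a1 and Slc16a4, the creatine carrier Slc6a8, and the vitamin and choline carriers Slc19a3, Slc5a6 and Slc44a1. They were chosen by symbol, and all 8 were found among the 53465 genes of the count matrix and passed the filter on low counts. The RNA came from endothelial cells of the mouse cortex, taken from males 8 to 12 weeks old, all of the strain tie2-Cre; ai9; rpl22HA/HA. One group received phosphate-buffered saline (PBS) and the other pentylenetetrazol (PTZ), a blocker of GABA-A receptors that provokes seizures, with n = 3 libraries per group, numbered 1, 2 and 4. Every mouse, controls included, thus carried the Cre driver, the Ai9 fluorescent reporter and the tagged ribosomal protein. Tie2-Cre is also active in part of the blood lineage. The dose of PTZ, the time to collection, the step that isolated the cells or their ribosomes, and whether each library came from 1 animal could not be taken from the labels. The p-values therefore reflect how far these libraries differ, and part of that may be technical.

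Brain endothelial cells are sealed to each other, so polar nutrients reach the brain through carriers in the endothelial membranes. Glucose crosses by facilitated diffusion through GLUT1, the product of Slc2a1, while GLUT3, the product of Slc2a3, is best known from neurons. Monocarboxylate carriers move lactate, pyruvate and ketone bodies together with a proton, and sodium-coupled carriers bring in creatine, biotin and pantothenate.

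Gene counts summed to 11107481 to 15406967 per library. Levels are CPM, counts scaled to a common library size, with TMM scaling, which corrects for differences in library composition. The 18 endothelial markers summed to 20318 to 26303 CPM in PBS and 19144 to 29677 CPM in PTZ. Pecam1, an adhesion molecule of endothelial cells, stood at 553 ± 69.6 CPM in PBS and 642 ± 76.6 CPM in PTZ (SD, n = 3). Markers of other cells were present at lower sums. The highest of these were red cell genes at 5796 to 11705 CPM and 10 microglia markers at 1666 to 3057 CPM. The 13 pericyte and smooth muscle markers summed to 220 to 1196 CPM. The 12 neuronal markers summed to 96.3 to 439 CPM and the 9 oligodendrocyte markers to 85.6 to 232 CPM over the 6 libraries. Under 1 CPM in every library stayed 3 neuronal genes (Tubb3, Slc17a7 and Gad2) and 2 oligodendrocyte genes (Olig1 and Olig2). So did 1 gene each of the pericyte and smooth muscle (Tagln), fibroblast (Dpt) and astrocyte (Slc7a10) lists. The same held for 5 of 6 choroid plexus and ependyma genes. Other members stood higher, such as the neuronal gene Rbfox3 at 4.81 to 28.5 CPM over the 6 libraries. In bulk libraries such as these, fewer cells of a type and less RNA per cell cannot be told apart.

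None of the 8 carriers passed the test between PTZ and PBS, and the libraries of the groups overlapped for every one of them. In edgeR's quasi-likelihood test across 13768 genes, 0 of 8 members reached an adjusted p under 0.05, their lowest value being 0.822. At an unadjusted p under 0.05 the count was also 0 of 8, where the share of all tested genes was 7.21%. DESeq2, limma-voom and edgeR's exact test also called 0 of 8 members at an adjusted p under 0.05. Over all genes tested the main test called 0% at the adjusted threshold, with 0.283 as its lowest adjusted p. Groups did not overlap for 14.3% of all genes (7.3% with PTZ above PBS and 7.04% below), against 0 of the 8 carriers. Log2 fold changes (PTZ against PBS) were positive for 6 of the 8, with a median of 0.10, where 52.7% of all genes were positive and their median was 0.03.

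**Figure D1:**
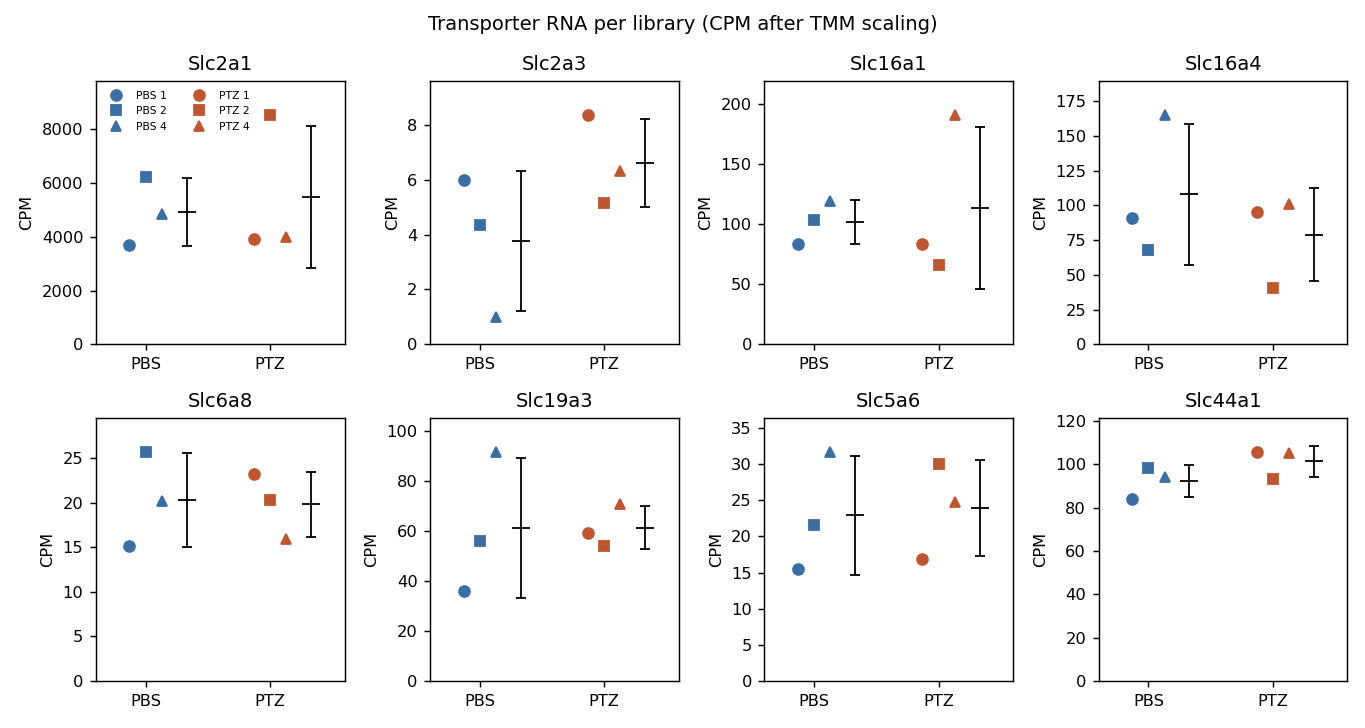
CPM of each of the 8 carriers (vertical axes, each from 0) in the PBS libraries (blue) and the PTZ libraries (orange); circles, squares and triangles are replicates 1, 2 and 4, and the black bar with whiskers is the mean ± SD of n = 3. In every panel at least 1 library of each group lies within the range of the other group, and Slc44a1 has the narrowest spread.

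Slc2a1 (ENSMUSG00000028645, protein coding, chromosome 4, 119108711 to 119137983, plus strand, GRCm38) was among the most abundant messenger RNAs of these libraries. It stood at 3711, 6210 and 4851 CPM in PBS libraries 1, 2 and 4 and at 3922, 8525 and 3975 CPM in the PTZ libraries. PTZ replicate 2 was the highest of all 6, PBS replicate 2 came next, and the other PTZ libraries lay between PBS replicates 1 and 4. By CPM the gene ranked 10th, 9th and 9th of all genes in PBS and 4th, 3rd and 9th in PTZ. It held 88.5% to 96.5% of the reads of the 8 carriers in each library. The log2 fold change was 0.15 (SE 0.41, adjusted p = 0.957 in edgeR), with a 95% interval of -0.75 to 1.05, so that a 2-fold rise lay just inside the interval and a 2-fold fall outside it. Without PTZ replicate 2 the value turned to -0.36, and without PBS replicate 1 to -0.02.

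As a share of endothelial signal in each library, Slc2a1 equalled 18.3%, 23.6% and 21.2% of the summed endothelial markers in PBS and 20.5%, 28.7% and 17.6% in PTZ. PTZ replicates 2 and 4 were the highest and the lowest of all 6, so the PTZ range enclosed the PBS range (exact 2-sided permutation p = 0.9, where 0.1 is the smallest possible). The endothelial marker sum was itself highest in the libraries numbered 2, at 26303 and 29677 CPM. Cldn5, the main claudin of the barrier, was also highest there, at 1240 and 1520 CPM against 463 to 746 CPM in the other 4 libraries. The part of endothelial content in the Slc2a1 level was not tested.

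Slc2a3 (ENSMUSG00000003153, protein coding, chromosome 6, 122727809 to 122801640, minus strand), the high-affinity glucose carrier of neurons, had few reads. It stood at 5.995, 4.34 and 0.983 CPM in PBS and 8.34, 5.16 and 6.32 CPM in PTZ, from 13 to 114 reads per library. PBS replicate 4, with 13 reads, was the lowest, and its 95% Poisson interval for counting error alone, 0.523 to 1.68 CPM, did not reach the other libraries. The highest library was PTZ replicate 1, and PBS replicate 1 lay between PTZ replicates 2 and 4. The log2 fold change of 0.81 (SE 0.69) had an interval of -0.73 to 2.35, the widest of the 8, and was 0.32 without PBS replicate 4. It was the only carrier that was higher in PTZ within all 3 pairs of equal replicate number. Neuronal markers, 12 genes, summed to 96.3 to 439 CPM in PBS and 128 to 280 CPM in PTZ. Of 8 tested, 5 had a positive log2 fold change, against 52.7% of all genes. At an unadjusted p under 0.05 in edgeR stood 0 of the 8, against 7.21%. In 1 gene, Snap25, all PTZ libraries (1.39 to 3.76 CPM) lay above PBS (0.453 to 0.812 CPM), as was so for 7.3% of all genes. The part of the neuronal markers in the level of Slc2a3 was not tested. The ratio of Slc2a1 to Slc2a3 ran from 619 to 4937 in PBS and from 470 to 1651 in PTZ (exact 2-sided permutation p = 0.5), on CPM without regard to length.

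Slc16a1 (ENSMUSG00000032902, protein coding, chromosome 3, 104638668 to 104658462, plus strand) encodes MCT1, the lactate and ketone body carrier of the barrier. The PBS libraries stood at 82.9, 103 and 119 CPM, and the PTZ libraries at 83.1, 65.8 and 190 CPM. The PTZ group held both the lowest and the highest library, and its SD of 67.4 CPM compared with 18.1 CPM in PBS. The log2 fold change was 0.15 (SE 0.36), with an interval of -0.65 to 0.96, and it turned to -0.45 without PTZ replicate 4. Relative to Slc2a1 in the same library, Slc16a1 was 2.24%, 1.66% and 2.46% in PBS and 2.12%, 0.772% and 4.79% in PTZ (exact 2-sided permutation p = 0.8). PTZ replicates 2 and 4 thus stood at opposite ends of this ratio too.

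Slc16a4 (ENSMUSG00000027896, protein coding, chromosome 3, 107291230 to 107312115, plus strand), a less studied member of the same family on the same chromosome, had the most negative fold change of the 8. It stood at 91.0, 68.1 and 165 CPM in PBS and at 95.3, 40.5 and 101.02 CPM in PTZ. PTZ replicate 2 was the lowest and PBS replicate 4 the highest, and the other 2 PTZ libraries lay above 2 of the 3 PBS libraries. The log2 fold change was -0.45 (SE 0.39, adjusted p = 0.823 in edgeR), with an interval of -1.32 to 0.42. It was -0.04 without PBS replicate 4, -0.18 without PTZ replicate 2 and -0.73 without PBS replicate 2, and 1 of the 3 pairs of equal number was higher in PTZ.

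Slc6a8 (ENSMUSG00000019558, protein coding, chromosome X, 73673150 to 73682502, plus strand), the sodium- and chloride-coupled creatine carrier, stood at 15.1, 25.7 and 20.2 CPM in PBS. In PTZ it stood at 23.2, 20.3 and 15.96 CPM. All PTZ libraries fell inside the PBS range. The log2 fold change of -0.04 (SE 0.32) had an interval of -0.74 to 0.67, so a 2-fold change in either direction lay outside it.

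Slc19a3 (ENSMUSG00000038496, protein coding, chromosome 1, 83012523 to 83038448, minus strand) encodes a thiamine carrier. It stood at 36.1, 56.1 and 91.6 CPM in PBS and 59.2, 53.9 and 70.9 CPM in PTZ. Here the PBS group was the more spread, with the lowest and the highest library of all 6. The group means were 61.3 ± 28.1 CPM and 61.3 ± 8.70 CPM, and the log2 fold change of 0.0030 (SE 0.32) had an interval of -0.70 to 0.71.

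Slc5a6 (ENSMUSG00000006641, protein coding, chromosome 5, 31036036 to 31048924, minus strand) encodes the sodium-dependent multivitamin carrier for biotin, pantothenate and lipoate. Its levels were 15.5, 21.5 and 31.7 CPM in PBS and 16.9, 30.1 and 24.8 CPM in PTZ. Again all PTZ libraries fell inside the PBS range, and the log2 fold change was 0.06 (SE 0.35, interval -0.71 to 0.83). The gene overlaps the start of Atraid on the opposite strand, which had 2671 to 4544 reads per library against 218 to 419 for Slc5a6. The labels do not state whether counting used strand, so reads from the shared stretch cannot be assigned with certainty.

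Slc44a1 (ENSMUSG00000028412, protein coding, chromosome 4, 53440413 to 53622478, plus strand), a choline carrier of the plasma and mitochondrial membranes, was the steadiest of the 8. It stood at 83.8, 98.3 and 94.3 CPM in PBS and 105.6, 93.1 and 105.1 CPM in PTZ. PTZ replicates 1 and 4 lay above all PBS libraries and PTZ replicate 2 lay just below PBS replicate 4. The log2 fold change of 0.14 (SE 0.19) had the narrowest interval, -0.29 to 0.57, which corresponds to 0.816-fold to 1.48-fold. Its SD of log2 CPM within groups was 0.11, and 2.01% of 10106 genes with a mean of at least 5 CPM and reads in every library had a smaller one. By the same measure Slc16a4 (0.70) and Slc2a3 (1.01) were more variable than 85.1% and 94.5% of those genes, and the median gene had 0.38.

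**Figure D2:**
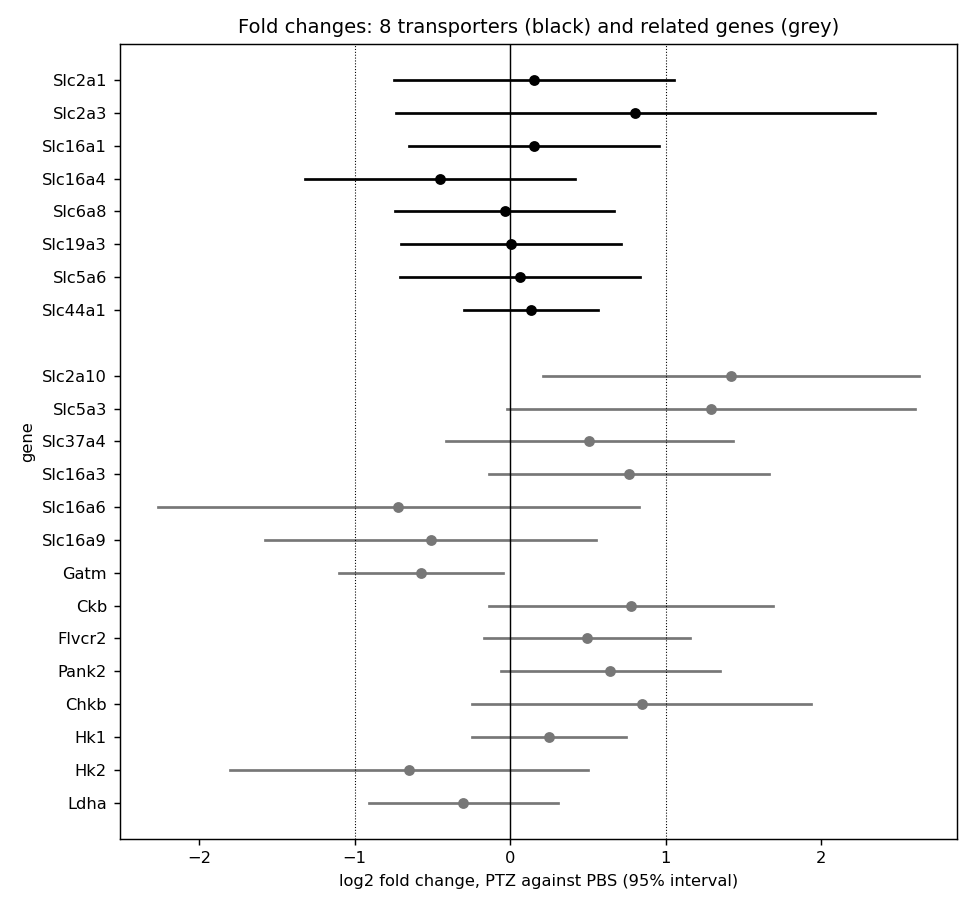
Log2 fold change, PTZ against PBS, from edgeR's quasi-likelihood fit (points) with its 95% interval (lines) for the 8 carriers (black) and for the related genes named in the text by rule (grey); dotted lines mark a 2-fold change either way. All 8 carrier intervals cross 0, and those of Slc16a1, Slc6a8, Slc19a3, Slc5a6 and Slc44a1 lie inside the dotted lines.

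For 5 of the 8 carriers (Slc16a1, Slc6a8, Slc19a3, Slc5a6 and Slc44a1) the 95% interval of the fold change excluded a 2-fold difference in either direction. For Slc2a1 and Slc2a3 the interval still held a 2-fold rise, and for Slc16a4 a 2-fold fall. These intervals come from the fit without replicate number as a block. With the block the log2 fold changes were 0.08 (SE 0.22) for Slc2a1, -0.46 (SE 0.22) for Slc16a4 and 1.07 (SE 0.69) for Slc2a3. Without it their SEs were 0.41, 0.39 and 0.69. Intervals of the blocked fit were not computed for these genes. The median gene of the whole table had an interval of 0.87 on either side of its log2 fold change.

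Per length of annotated exon, Slc2a1 stood far above the other carriers and Slc2a3 well below them, while several in between lay close together. Slc2a1 stood at 1483 ± 534 CPM per kb over the 6 libraries (SD, n = 6), 24th of 13762 tested genes with an annotated length. Slc16a1 followed at 24.3 ± 10.1, Slc16a4 at 24.1 ± 10.7 and Slc44a1 at 13.9 ± 1.18 CPM per kb. Between the last 2 stood Slc19a3, at 11.8 to 29.9 CPM per kb over the libraries (SD 6.07). Below them stood Slc5a6 at 5.87 ± 1.67, Slc6a8 at 3.85 ± 0.780 and Slc2a3 at 0.717 ± 0.340 CPM per kb.

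The step from Slc2a1 to Slc16a1 was 5.95 ± 0.86 on the log2 scale of CPM per kb, about 62.0-fold, and was present in 6 of 6 libraries. The steps from Slc44a1 to Slc5a6 (1.29 ± 0.43) and from Slc6a8 to Slc2a3 (2.65 ± 1.17) also had the same sign in 6 of 6. Among neighbours in the middle of the order the sign varied. Slc16a1 exceeded Slc16a4 in 3 of 6 libraries, Slc16a4 exceeded Slc19a3 in 4, Slc19a3 exceeded Slc44a1 in 5 and Slc5a6 exceeded Slc6a8 in 5. The mean log2 steps of the first 2 of these pairs, 0.04 ± 0.57 and 0.20 ± 0.59, were smaller than their SD (n = 6). Those of Slc19a3 over Slc44a1 (0.47 ± 0.39) and Slc5a6 over Slc6a8 (0.58 ± 0.49) were larger than theirs, and the steps were not tested. The order of Slc16a1 and Slc16a4 was reversed in the PBS libraries alone.

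**Figure D3:**
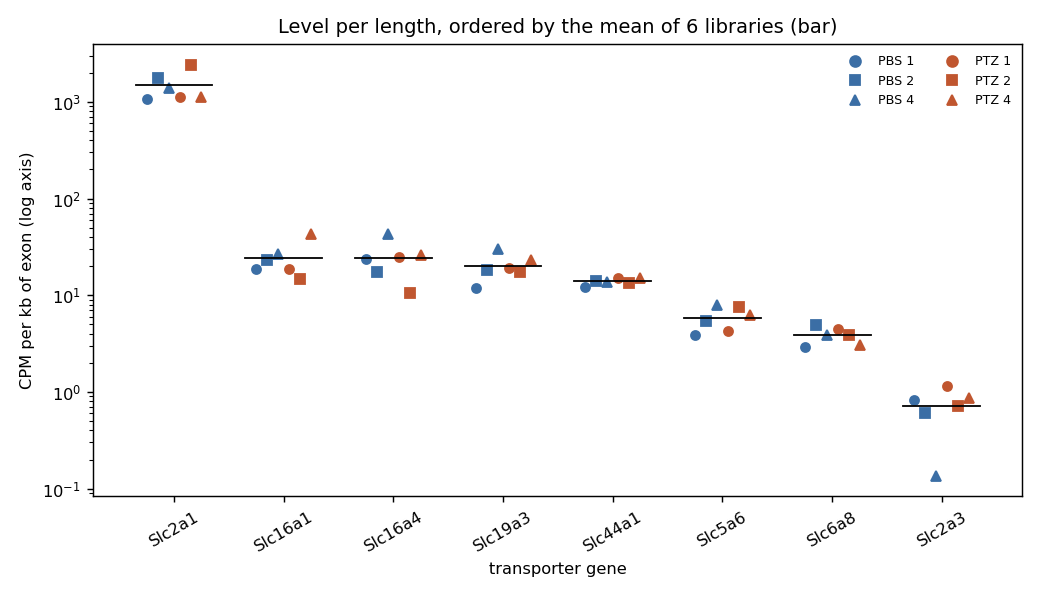
CPM per kb of annotated exon (log axis) for the 8 carriers, ordered by their mean over 6 libraries (black bar); symbols are libraries as in the plot of CPM by library. Slc2a1 stands at 1483 CPM per kb, the carriers from Slc16a1 to Slc44a1 between 13.9 and 24.3, and Slc2a3 at 0.717.

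The carriers varied in different directions across libraries. Slc2a1 was highest in the libraries numbered 2 of both groups, by 0.37 (PBS) and 0.74 (PTZ) above the group mean of log2 CPM. Slc16a4 was lowest in those same libraries, by -0.56 and -0.85, and highest in those numbered 4, by 0.71 and 0.47. The libraries numbered 1 were low in both groups for Slc2a1 (-0.38 and -0.38), Slc16a1 (-0.28 and -0.29) and Slc5a6 (-0.50 and -0.46). Slc16a1 and Slc19a3 were, like Slc16a4, highest in the libraries numbered 4 of both groups. Slc6a8 and Slc44a1 deviated to the same side in 1 of the 3 numbers.

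Sums of vessel segment markers also differed by number. The 7 venous markers summed to 14004 and 21852 CPM in the libraries numbered 2 against 4995 to 7400 CPM in the others. The 9 arterial markers were also highest there, at 5078 and 5098 CPM against 2777 to 3880 CPM. So were the 6 red cell genes, at 10869 and 11705 CPM against 5796 to 7349 CPM. The 6 capillary markers were highest in the libraries numbered 4, at 2547 and 2738 CPM against 1612 to 2217 CPM. The part of these lists in the levels of Slc2a1, Slc16a4 or Slc19a3 was not tested. A fit that used replicate number as a block again called 0 of 8 members. Its smallest unadjusted p among them was 0.062, for Slc16a4 (-0.46, SE 0.22, adjusted p = 0.480 in edgeR). Over all genes 1500 stood at an unadjusted p under 0.05 with the block, against 993 without it.

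**Figure D4:**
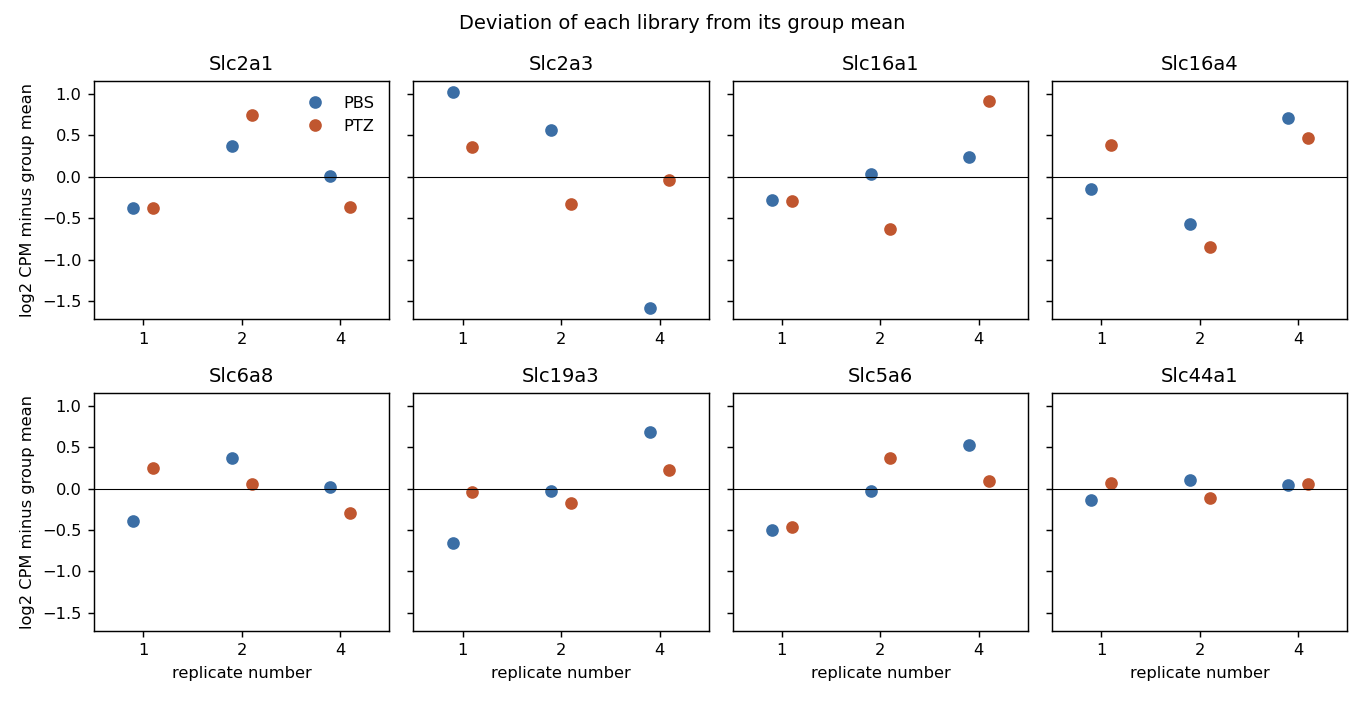
Log2 CPM of each library minus the mean of its group (vertical axis, shared by all panels) against the replicate number, for the 8 carriers in PBS (blue) and PTZ (orange). For Slc2a1 both libraries numbered 2 lie above 0, at 0.37 and 0.74, while for Slc16a4 both lie below, at -0.56 and -0.85.

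The genes whose pattern over the 6 libraries was most like that of Slc2a1, by Pearson's r of log2(CPM + 1), were Ddx24 (0.999), Rack1 (0.988), Oaz1-ps (0.986), Coro2b (0.981) and Wdr25 (0.980). They were picked as the highest of 9716 genes, of which 149 had r over 0.9, so the values describe the choice and carry no test. Ddx24, an RNA helicase gene, stood at 466, 740 and 588 CPM in PBS and 474, 974 and 497 CPM in PTZ. The nearest genes to the other carriers were Csnk1a1 and Sp4 for Slc2a3, Repin1 and Bche for Slc16a1, and Cdc23 and Dhodh for Slc16a4. For Slc6a8 they were Srek1 and Luc7l3, for Slc19a3 Hist4h4 and Trim2, for Slc5a6 Cox10 and Rab3c, and for Slc44a1 Phtf1 and Sept11, with r from 0.974 to 0.998 among all of these. Oaz1-ps is a pseudogene and Hist4h4 one of many near-identical histone genes, so their counts are uncertain.

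Other genes of the same pathways were read from a list of 73 carriers, chaperones and enzymes, of which 53 were tested and 17 of the other 20 stayed under 1 CPM in every library. In edgeR's quasi-likelihood test 0 of 53 passed at an adjusted p under 0.05. At an unadjusted p under 0.05 stood 1 gene higher in PTZ (3.83% of all genes) and 2 lower (3.38%), together 5.66% of the list against 7.21% of all genes. Groups did not overlap for 5 of 53, or 9.43%, against 14.3% of all genes. The list's median log2 fold change was 0.10 against 0.03 over all genes.

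Among 11 tested glucose and polyol carriers 6 had a positive log2 fold change, against 52.7% of all genes. At an unadjusted p under 0.05 in edgeR stood 2 (1 higher and 1 lower in PTZ), or 18.2%, against 7.21% of all genes. Groups did not overlap for 2, or 18.2%, against 14.3% of all genes. Both had PTZ above PBS, as was so for 7.3% of all genes. Slc2a10, which encodes GLUT10, a carrier found in arterial smooth muscle, stood at 5.62, 1.88 and 3.401 CPM in PBS and 10.8, 9.63 and 8.95 CPM in PTZ. The lowest PTZ library exceeded the highest PBS library, and the log2 fold change was 1.42 (SE 0.55, unadjusted p = 0.026 and adjusted p = 0.654 in edgeR). Slc5a3, the sodium-coupled carrier of myo-inositol, did likewise at 2.37, 2.47 and 4.16 CPM in PBS and 10.8, 5.16 and 6.07 CPM in PTZ (1.29, SE 0.59, adjusted p = 0.695). The 13 pericyte and smooth muscle markers summed to 220 to 603 CPM in PBS and 395 to 1196 CPM in PTZ. Of 12 tested, all 12 had a positive log2 fold change, against 52.7% of all genes. At an unadjusted p under 0.05 in edgeR 6 were higher, against 3.83% of all genes. The 8 fibroblast markers summed to 92.9 to 150 CPM in PBS and 88.0 to 288 CPM in PTZ, and of 7 tested all 7 were positive and 3 higher at that threshold. The part of either list in the values of Slc2a10 and Slc5a3 was not tested. When 1 library was left out, the unadjusted p of Slc2a10 ran from 0.013 (without PBS replicate 1) to 0.082 (without PBS replicate 2).

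Slc2a5, the fructose carrier known from microglia, stood at 4.43, 0.296 and 7.56 CPM in PBS and 0.0732, 0.0993 and 1.13 CPM in PTZ, with overlapping libraries (-3.17, SE 1.32, unadjusted p = 0.037 and adjusted p = 0.690 in edgeR). It fell outside the rule for named genes because of its low level and was chosen after its values were seen. Slc37a4, the glucose 6-phosphate carrier of the endoplasmic reticulum, had 0.51 (SE 0.42).

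At an unadjusted p under 0.05 in edgeR stood 1 of 3 tested genes of creatine synthesis and creatine kinases. Over all genes the share was 7.21%, with 3.38% lower in PTZ. Gatm, which encodes the first enzyme of creatine synthesis, stood at 331, 274 and 388 CPM in PBS and 218, 186 and 263 CPM in PTZ. Every PTZ library lay below every PBS library, as was so for 7.04% of all genes. The log2 fold change of Gatm was -0.57 (SE 0.24, unadjusted p = 0.036 and adjusted p = 0.690 in edgeR). Blocked on replicate number, it was -0.57 (SE 0.17, adjusted p = 0.352). When 1 library was left out, its unadjusted p ran from 0.024 (without PBS replicate 2) to 0.120 (without PBS replicate 4). Ckb, the brain creatine kinase gene, stood at 35.3, 29.0 and 19.5 CPM in PBS and 40.8, 23.6 and 79.0 CPM in PTZ (0.78, SE 0.41), with overlap. PTZ replicate 4 was its highest library, and the value was 0.20 without it and 1.06 without PTZ replicate 2. The 9 astrocyte markers also had their highest sum in PTZ replicate 4, at 195 CPM against 67.4 and 79.6 CPM in the other PTZ libraries and 51.9 to 140 CPM in PBS, and their part in the value of Ckb was not tested. The 10 microglia markers summed to 2562 to 3057 CPM in PBS and 1666 to 2632 CPM in PTZ. A positive log2 fold change was found for 0 of 10, against 52.7% of all genes. At an unadjusted p under 0.05 in edgeR 2 were lower, against 3.38% of all genes. The part of the microglia markers in the values of Gatm and Slc2a5 was not tested.

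**Figure D5:**
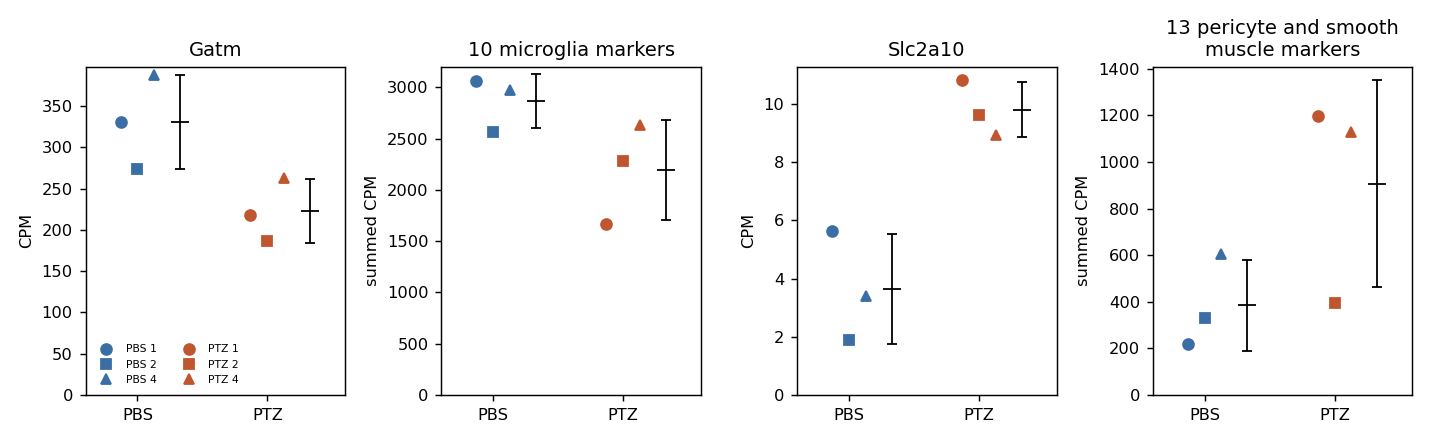
CPM of Gatm and Slc2a10 and the summed CPM of 10 microglia markers and of 13 pericyte and smooth muscle markers, per library (vertical axes from 0), with the mean ± SD of n = 3; blue is PBS, orange is PTZ, and circles, squares and triangles are replicates 1, 2 and 4. The PTZ libraries of Gatm (186 to 263 CPM) lie below those of PBS (274 to 388 CPM), while both marker sums overlap between the groups.

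Of 12 tested monocarboxylate carriers and chaperones, 0 stood at an unadjusted p under 0.05 in edgeR and 6 had a positive log2 fold change. Over all genes these shares were 7.21% and 52.7%. Bsg, which encodes basigin, the chaperone that brings MCT1 to the membrane, was abundant at 3051, 5624 and 3337 CPM in PBS and 2551, 4989 and 4895 CPM in PTZ. Its log2 fold change was 0.05 (SE 0.39, interval -0.81 to 0.91). Slc16a3, the lactate exporter MCT4, had 0.76 (SE 0.41), Slc16a6 had -0.72 (SE 0.70) and Slc16a9, a carnitine carrier, had -0.51 (SE 0.48). Leaving out 1 library moved Slc16a6 between -0.30 (without PTZ replicate 1) and -1.19 (without PTZ replicate 2), and the same libraries moved Slc16a9 between -0.21 and -0.86. Bsg fell outside the rule for named genes and is given as the partner of Slc16a1.

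Among 23 tested vitamin and choline genes 0 stood at an unadjusted p under 0.05 in edgeR and 13 had a positive log2 fold change. The shares of all genes were 7.21% and 52.7%. Groups did not overlap for 2 of the 23, or 8.70%, against 14.3% of all genes. Pank2, a pantothenate kinase of coenzyme A synthesis, stood at 14.4, 10.4 and 12.4 CPM in PBS and 17.3, 20.3 and 20.7 CPM in PTZ. All its PTZ libraries lay above PBS, as was so for 7.3% of all genes (0.64, SE 0.32, adjusted p = 0.700 in edgeR). Flvcr2, a choline carrier of brain endothelium, stood at 52.1, 53.1 and 106 CPM in PBS and 94.4, 86.9 and 117 CPM in PTZ, with overlap (0.50, SE 0.30, unadjusted p = 0.126 in edgeR). It was higher in PTZ within all 3 pairs of equal number. With replicate number as a block it was 0.57 (SE 0.21, unadjusted p = 0.023 and adjusted p = 0.394 in edgeR). In the blocked fit 1 of these 23 genes thus stood at an unadjusted p under 0.05, beside 1500 of all 13768 genes. Without PBS replicate 2 the unblocked value was 0.30 and without PBS replicate 4 it was 0.89. The choline kinase gene Chkb had 0.85 (SE 0.49), which became 0.34 without PTZ replicate 1 and 1.22 without PTZ replicate 4. Folr2, a folate receptor known from macrophages and chosen after its values were seen, had all PTZ libraries (0.146 to 1.09 CPM) below all PBS libraries (1.48 to 2.998 CPM). That was so for 7.04% of all genes, and Folr2 rested on 2 to 15 reads per PTZ library and 15 to 48 in PBS. Its log2 fold change was -1.55 (SE 0.96, unadjusted p = 0.138 and adjusted p = 0.759 in edgeR).

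The first enzymes that act on glucose and lactate in the cell gave 0 of 4 at that unadjusted threshold, against 7.21% of all genes. Hk1, the main hexokinase gene here, stood at 103, 155 and 117 CPM in PBS and 131, 166 and 149 CPM in PTZ (0.25, SE 0.22). Hk2, another hexokinase gene, had -0.65 (SE 0.52) and Ldha, a lactate dehydrogenase subunit gene, had -0.30 (SE 0.27), each with overlapping groups. Ldha ran from -0.15 without PTZ replicate 4 to -0.56 without PTZ replicate 2, where its unadjusted p was 0.043 in edgeR. Hk1 ran from 0.12 without PTZ replicate 2 to 0.40 without PBS replicate 2.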

How the data were processed

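The deposited count table holds unnormalized reads by Ensembl gene (53465 genes, 6 libraries), per the file headers, with 5 summary rows that name no gene. Those rows held 16.1% to 22.9% of reads and stayed out of library sizes and tests. A scaled signal was deposited too, 1 file per library, equal to the count divided by 1 factor per library in 100% of values within 0.01 reads, and used here only as an alternative scaling. GRCm38, TopHat2 2.1.1, HTSeq, CASAVA and edgeR are named in the submitters' processing notes. Neither strand setting nor annotation release is stated there.

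Gene names, coordinates and exon lengths came from GENCODE M21 (GRCm38), with 53274 IDs given a symbol. The low-count filter was filterByExpr (count of at least 10, total of at least 15). TMM factors ran from 0.864 to 1.14. The test was edgeR 4.0.16 (glmQLFit, glmQLFTest) in R 4.3.3, with group as factor, 2-sided, Benjamini-Hochberg adjusted over 13768 genes. Members were read from that fit. SE and 95% intervals come from the fold change, its test statistic and the fit's degrees of freedom. The common biological coefficient of variation was 0.470. DESeq2 1.42.0 and limma 3.58.1 served as alternatives. Ratios to Slc2a1, Slc2a3 or the endothelial marker sum were a family of 10 exact permutation tests, all with adjusted p = 1. The fit was also run on simulated counts drawn without an effect of replicate number, and no result given here rests on that run.

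The replicate numbers come from the sample titles. Deviations from group means correlated at 0.206, 0.266 and 0.263 between libraries of equal number, each over 0.1. Equal numbers were therefore taken as pairs in the blocked fit and in the counts of pairs. The main test, its SEs and intervals, and the permutation tests did not use the pairing. Libraries of 1 group differed by more than sampling noise (chi-square over degrees of freedom 48.2 to 112). Members and lists were chosen with earlier results of these data known. Related genes were named as the up to 3 per list with the smallest unadjusted p and a mean of at least 5 CPM, and the genes of most similar pattern as the 5 nearest to Slc2a1 and the 2 nearest to each other member, leaving out predicted genes.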

Additional observations from a re-analysis of the deposited data

How the results depend on the processing

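Across 18 alternatives of scaling, filter, test, block and left-out library, 0 of 8 carriers passed at an adjusted p under 0.05. Slc2a3, Slc16a4 and Slc44a1 kept their sign in all 18 (0.32 to 1.32, -0.73 to -0.04 and 0.07 to 0.18). The sign turned for Slc2a1 without PBS replicate 1 (-0.02) and PTZ replicate 2 (-0.36), for Slc16a1 without PTZ replicate 4 (-0.45) and for Slc37a4 without PTZ replicate 1 (-0.014). Slc6a8 turned positive with library totals (0.021), limma-voom (0.0062) and without PBS replicate 2 (0.13) or PTZ replicate 4 (0.10). Slc5a6 turned negative with the authors' scaling (-0.0026) and without PBS replicates 1 (-0.16) and 2 (-0.0072) or PTZ replicate 2 (-0.17). Slc19a3 turned negative with DESeq2 size factors (-0.022), upper quartile scaling (-0.035), the authors' scaling (-0.055), no low count filter (-0.037), a mean of at least 5 CPM (-0.00038), the DESeq2 test (-0.0067) and when PBS replicate 1 (-0.27), PBS replicate 2 (-0.09) or PTZ replicate 4 (-0.12) was left out. Over the left-out libraries the values ran from -0.36 to 0.35 for Slc2a1, -0.45 to 0.39 for Slc16a1, -0.21 to 0.13 for Slc6a8, -0.27 to 0.39 for Slc19a3, -0.17 to 0.35 for Slc5a6 and -0.014 to 0.75 for Slc37a4. The cause of these turns was not tested.

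Over all genes, the 0 calls of the main test became 121 without the low count filter, 76 with DESeq2, 57 with the exact test, 1 with limma-voom and 0 to 8 when a library was left out (8 without PBS replicate 2). With the replicate block the calls stayed at 0, and the block changed no call among the carriers. The 3 related genes at an unadjusted p under 0.05 became 1 with endothelial marker scaling, 6 without the low count filter, 4 with the replicate block and 0 to 7 when a library was left out: 1 without PBS replicate 4, 0 without PTZ replicate 1 and 7 without PTZ replicate 4. In the order by length, 4 of 8 carriers kept their rank with the longest transcript as length and 6 in the PBS libraries alone, with all 8 in the PTZ libraries. With 3 libraries per group and the spread between them, the 95% interval of the median gene reached 0.87 (log2) to either side.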

Other observations

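Slc2a1 overlaps genes annotated on the opposite strand. Gm12868 had 273 to 510 reads per library and Gm12867 had 0 to 83, against 53583 to 85868 for Slc2a1. Without a stated strand setting, reads from these genes and from Slc2a1 cannot be told apart where they overlap.

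Several carriers outside the 8 were abundant. Slc50a1, a sugar carrier, stood at 536 ± 96.5 CPM in PBS and 488 ± 150 CPM in PTZ (SD, n = 3), and Slc52a3, a riboflavin carrier, at 319 ± 59.8 and 274 ± 52.4 CPM. Cd320, the receptor for vitamin B12 bound to transcobalamin, stood at 104 ± 10.1 and 112 ± 78.7 CPM. All 3 had overlapping groups, and they were chosen after their values were seen.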
